A study of Mus musculus with 2 samples.

Results

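The cells described here are blood endothelial cells of 2 mouse mammary tumor libraries that carried the venous transcripts Ackr1 and Selp. They were selected on their own counts: among cells with at least 1000 genes and at most 10% mitochondrial counts, a gate kept those with at least 5 unique molecular identifiers (UMIs, each 1 counted transcript) over Pecam1, Cdh5, Emcn, Flt1 and Kdr. The gate also asked for at most 1 UMI over Krt8, Krt18, Rhox5, Col1a1, Col3a1 and Ptprc, which mark tumor, stromal and immune cells, and for 0 UMIs of the lymphatic gene Prox1. Members held at least 3 UMIs over Ackr1 and Selp together. The rule found 121 cells, which is 7.70% of the 1571 gated cells and a small part of the 14795 barcodes in both libraries. Of these, 49 cells came from PyMT-M and 72 from PyMT-N. The reference was the gated cells with 0 UMIs of both genes, namely 462 cells from PyMT-M and 881 from PyMT-N. The remaining 58 and 49 gated cells held 1 or 2 UMIs.

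PyMT-M and PyMT-N are sublines of the MMTV-PyMT model, in which the mammary tumor virus promoter drives the polyoma middle T oncogene in mammary epithelium. The study calls them High-MAC and Low-MAC for the abundance of macrophages in their tumors, and asked how their endothelial cells differ. Each subline was grown in the mammary fat pad of female C57BL/6 mice, 6 to 8 weeks old at transplantation, so that the endothelial cells came from the host and the tumor cells from 1 line per group. Endothelial cells of 3 tumors per subline were enriched with beads, sorted for CD31 and CD144 after depletion of CD45+ and Ter119+ cells, and pooled into 1 library each. The labels name no agent given to either group, and they name the tissue only as breast tissue and the cells only as endothelial.

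With 1 pooled library per subline there is no replicate, and tumors cannot be told apart within a pool. The sublines could therefore not be tested against each other. Members and reference were compared within each library, with no test, because the members were selected within that contrast. Ratios are given with exact 95% intervals for counting error, which say nothing of the spread between tumors. PyMT-M held 7821 barcodes with 141067264 UMIs and PyMT-N 6974 barcodes with 116150425 UMIs, and 20 barcodes occurred in both, none of them gated. Member cells were shallower in PyMT-M, with a median of 5215 UMIs and 2350 genes against 10993 UMIs and 3822 genes in PyMT-N. The reference cells had medians of 4999 and 12397 UMIs. Median mitochondrial shares were 3.52% and 3.62% in the members and 2.87% and 3.04% in the reference.

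Venules are the segment of the circulation where leukocytes leave the blood. Their endothelium stores P-selectin (Selp) in Weibel-Palade bodies, shows the chemokine-binding receptor Ackr1 on its surface, and adds E-selectin (Sele) when cytokines act on it, while the nuclear receptor Nr2f2 holds venous identity by opposing Notch signaling. High endothelial venules are the specialized venules of lymph nodes and of some inflamed tissues, where enzymes such as Chst4 and Fut7 decorate carrier proteins, Glycam1 among them, with ligands for L-selectin on lymphocytes. Glycam1 is also a milk protein gene of mammary epithelium.

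The windows upstream of the 4 marker genes are shown because the members were defined or labelled by these genes. Each is 250 bases before the annotated start, from RefSeq on GRCm38.p6, an older build than the mm39 named in the submitters' notes. Capitals mark AGGTCA or its reverse complement TGACCT, the half-site letters of the nuclear receptor family to which Nr2f2 belongs, searched on both strands.

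Ackr1 upstream window: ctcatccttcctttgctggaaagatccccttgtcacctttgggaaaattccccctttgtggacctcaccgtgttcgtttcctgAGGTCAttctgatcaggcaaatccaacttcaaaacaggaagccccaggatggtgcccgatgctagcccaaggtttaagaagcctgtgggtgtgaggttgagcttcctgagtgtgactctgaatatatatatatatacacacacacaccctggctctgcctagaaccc

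Selp upstream window: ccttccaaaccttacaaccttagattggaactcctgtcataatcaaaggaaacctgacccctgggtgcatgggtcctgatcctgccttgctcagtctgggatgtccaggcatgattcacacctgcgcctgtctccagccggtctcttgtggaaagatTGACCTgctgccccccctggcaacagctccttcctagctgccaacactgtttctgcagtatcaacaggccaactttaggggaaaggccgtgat

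Sele upstream window: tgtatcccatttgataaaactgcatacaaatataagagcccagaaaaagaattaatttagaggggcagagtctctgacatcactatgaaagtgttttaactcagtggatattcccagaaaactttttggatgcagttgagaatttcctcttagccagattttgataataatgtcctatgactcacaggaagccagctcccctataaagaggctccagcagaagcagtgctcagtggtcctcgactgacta

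Glycam1 upstream window: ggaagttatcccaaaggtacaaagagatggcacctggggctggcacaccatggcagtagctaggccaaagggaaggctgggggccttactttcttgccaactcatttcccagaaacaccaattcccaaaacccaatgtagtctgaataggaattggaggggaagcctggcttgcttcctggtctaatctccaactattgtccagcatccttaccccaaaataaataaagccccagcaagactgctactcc

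The Ackr1 window lies at chr1:173333504-173333753 on the minus strand and holds 1 match, whose first base is 167 bases before the start. The Selp window, at chr1:164115014-164115263 on the plus strand, holds 1 match 93 bases before the start. No match was present in the windows of Sele (chr1:164047984-164048233, plus strand) and Glycam1 (chr15:103565082-103565331, minus strand). These letters occurred in 14.0% of all 32851 such windows, so a match describes the window and is no evidence of binding, which was not measured. Sele and Selp are neighbours on the chromosome, with starts 67.03 kb apart.

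The 2 genes that chose the members were measured as follows, as a description only. Ackr1 was found in 34 of 49 PyMT-M members and 52 of 72 PyMT-N members, at 639 and 316 CPM over the summed members (counts per 1000000 UMIs). Selp was found in 48 and 69 members, at 915 and 497 CPM. Single cells reached 60 UMIs of both genes together in PyMT-M and 48 in PyMT-N, around a median of 7 in each. At the threshold, 13 members in each library held exactly 3 UMIs, and 19 and 15 cells held 2 and were left out. Outside the gate, 9 and 26 barcodes also reached 3 UMIs. In cells with 0 UMIs of the 5 endothelial genes (4765 in PyMT-M, median 23164 UMIs, and 3317 in PyMT-N, median 20157), Selp was found in 0.168% and 0.151%.

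Sele and Glycam1, the other marker genes, were not part of the rule. Sele had 40 UMIs in the PyMT-M members against 1 in the reference, or 141 against 0.388 CPM, a log2 ratio of 8.51 (5.95 to 13.85). In PyMT-N it had 65 UMIs against 8, or 71.5 against 0.67 CPM, with a log2 ratio of 6.74 (5.67 to 8.01). Sele was found in 10 of 49 PyMT-M members (20.4%, exact Clopper-Pearson interval 10.2 to 34.3) and in 24 of 72 PyMT-N members (33.3%). Thinned to 5000 UMIs a cell, with shallower cells left out, the shares were 17.2% and 21.4%. In the reference the shares were 0.216% and 0.341%, and in the non-endothelial cells 1.15% and 0.151%. E-selectin transcripts were therefore detected in a minority of the members, which counts cells with a UMI and not cells that express the gene. In the PyMT-M reference the detected share was below that of non-endothelial cells, which were deeper.

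Glycam1 was not detected in most members, which limits cells with a UMI and not cells that express the gene. In PyMT-M it was found in 1 of 49 cells (2.04%), with 2 UMIs against 1 UMI in the reference, a log2 ratio of 4.18 (-0.08 to 10.07), and in 0.189% of non-endothelial cells. In PyMT-N it was found in 11 of 72 cells (15.3%, 7.88 to 25.7, and 14.3% after thinning), against 1.02% of the reference and 0.392% of the non-endothelial cells. Of the 2107 Glycam1 UMIs in PyMT-N members, 1938 (92.0%) were in 1 cell, where they made up 8.62% of all 22482 UMIs. Without that cell the level fell from 2318 to 191 CPM and the log2 ratio from 10.67 to 7.07. A second cell held 154 UMIs, and the other 9 cells held the remaining few.

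The cell with 1938 Glycam1 UMIs also carried 350 UMIs of Ccl21a, a T-cell chemokine, 64 of Enpp2, the enzyme that makes lysophosphatidic acid at these venules, and 2 of the sulfotransferase gene Chst4. Its rule genes stood at 24 UMIs for Ackr1 and 6 for Selp, and Sele was at 0. The second cell carried 64 Ccl21a, 6 Enpp2, 2 Chst4 and 1 Fut7 UMIs. One further gated PyMT-N cell had 0 UMIs of Ackr1 and Selp and so belongs to the reference. It held 5 Glycam1, 4 Chst4, 2 Fut7, 32 Enpp2 and 5 Sele UMIs. The PyMT-N reference had 17 Glycam1 and 4 Chst4 UMIs in all, and most of its few Sele UMIs were in this cell. These 3 cells, chosen after their values were seen, were gated PyMT-N cells with Glycam1 and at least 2 UMIs of Chst4.

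Other defining genes of high endothelial venules were at or near 0. Chst4 had 0 UMIs in PyMT-M and 5 UMIs in 3 PyMT-N cells, and Fut7 had 0 and 1. A count of 3 would be 6.12% of the 49 PyMT-M cells, which limits cells with a UMI and not cells that express the gene, and these genes had few UMIs even in the cell with most Glycam1. Madcam1, Ccl19 and Cxcl13 had 0 UMIs in the members of both libraries. Glycam1, the marker for the high-endothelial part of the working label, was thus not found in most members, and the low counts of the other genes cannot settle their presence. The members are called venous-like below, from the venous genes described next, and high-endothelial is not used for them. Of 23 high endothelial venule genes listed, 13 passed the filter on low levels, 2 were higher (Sele and Glycam1) and 1 lower. Over all 3755 tested genes, 2.26% were higher and 2.93% lower. The list had medians of 0.32 in PyMT-M and 0.59 in PyMT-N (log2). Sele passed the filter only through the members, where it was high. Glycam1 passed the filter through its PyMT-N members, and its PyMT-M value rests on the 3 UMIs given above.

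The lower one was Chst1, a keratan sulfate sulfotransferase, at -2.95 and -2.60. St3gal4, which adds terminal sialic acid to selectin ligands, gave log2 ratios of 0.73 and 1.56, and the sulfotransferase gene Chst2 gave 0.50 and 1.46. Podxl (-1.10 and -0.67) and Cd34 (-0.31 and -0.43) had negative ratios. Of the 13 genes past the filter, 8 were positive and 4 negative in both libraries. Ccl21a reached 478 CPM in PyMT-N members with a log2 ratio of 3.99, but 80.6% of its UMIs were in the cell described above, and the ratio was 1.66 without it. In PyMT-M members Ccl21a had 0 UMIs.

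**Figure D1:**
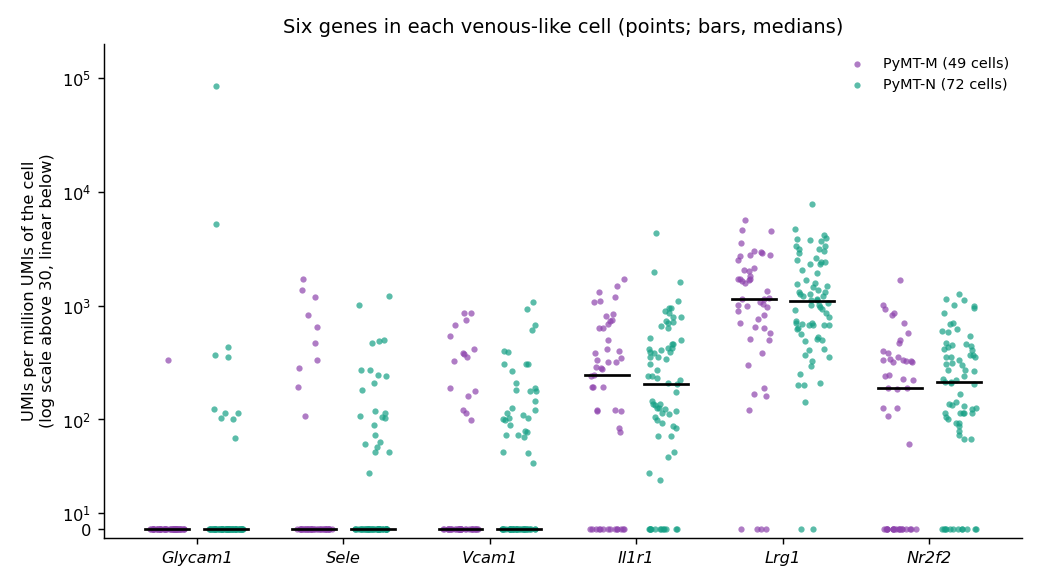
Level of 6 genes in each venous-like cell (points, by library, with bars at the medians), as counts per 1000000 UMIs of the cell, on an axis that is logarithmic above 30 and linear below. Glycam1 was at 0 in all but 1 PyMT-M cell and 11 PyMT-N cells, and a single PyMT-N cell held 1938 UMIs, while Lrg1 was found in 45 of 49 and 70 of 72 cells.

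Across the transcriptome, UMIs were summed over the members and over the reference of each library, and 3755 genes passed a mean of 50 CPM. A gene was called when it differed at least 2-fold in the same direction in both libraries. On this rule 85 genes (2.26%) were higher in the venous-like cells and 110 (2.93%) lower, around medians of -0.01 and 0.02 on the log2 scale. In single libraries the counts were 120 and 182 higher, and 227 and 156 lower. Since the cells were selected within this contrast, these values describe them and test nothing, and the counts for gene groups below are to be read beside these 2 percentages.

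**Figure D2:**
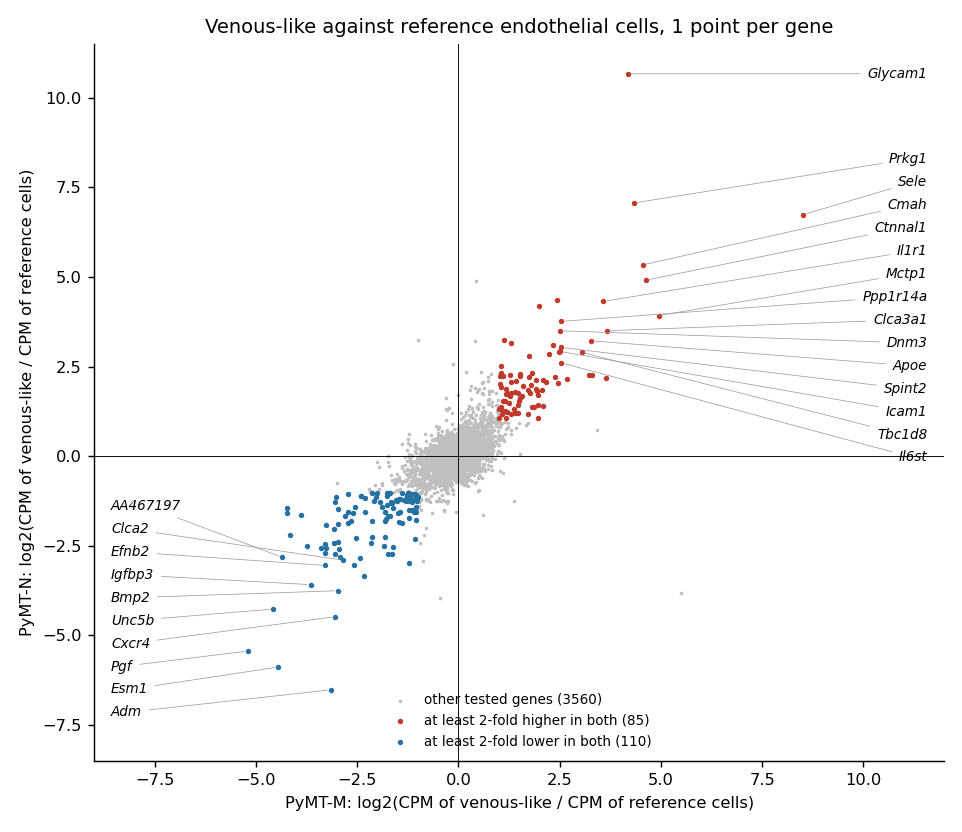
Log2 ratio of venous-like cells over the reference in PyMT-M (x axis) and PyMT-N (y axis), 1 point per gene of the 3755 tested. Sele lies far to the upper right (8.51 and 6.74), Glycam1 at 4.18 on 2 PyMT-M UMIs and at 10.67 on PyMT-N UMIs mostly of 1 cell, and Pgf, Esm1 and Igfbp3 to the lower left.

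After Sele, the most strongly higher genes by the smaller of their ratios were Ctnnal1 (alpha-catulin, related to the alpha-catenins), with 106 against 4.27 CPM in PyMT-M and 95.7 against 3.18 in PyMT-N, and Cmah, which hydroxylates sialic acid. Cmah stood at 63.6 against 2.72 CPM and 186 against 4.61 CPM. It was found in 16.3% and 41.7% of members (13.8% and 32.9% after thinning) and in 0.986% and 1.63% of non-endothelial cells. In PyMT-M 9 of the 18 Cmah UMIs were in 1 cell. Like Sele, Ctnnal1 and Cmah passed the filter on low levels only through the members, where they were high. Genes with similar ratios but lower levels in the members could not enter the ranking, so the top of it partly depends on that filter. Prkg1, the cGMP-dependent kinase of vascular relaxation, had log2 ratios of 4.33 and 7.06, and Mctp1, a calcium-binding membrane protein, 4.94 and 3.92. All of these were found in a fraction of the members: Prkg1 in 17 of 49 and 16 of 72 cells, Mctp1 in 23 and 42, above the 0.735% to 7.30% of non-endothelial cells.

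Il1r1, the signaling receptor for interleukin-1, was higher at 328 against 27.6 CPM in PyMT-M, a log2 ratio of 3.57 (3.11 to 4.04). The PyMT-N values were 310.3 against 15.6 CPM, a log2 ratio of 4.32 (4.04 to 4.59). It was found in 71.4% and 81.9% of members against 12.3% and 13.6% of the reference, and in 69.0% and 64.3% against 6.49% and 6.70% after thinning. Non-endothelial cells were positive in 19.8% and 49.2%, at 13.5 and 39.6 CPM, below both levels of the members. The PyMT-M reference, at 27.6 CPM, was above the non-endothelial level there, and the PyMT-N reference below it. The shares set cells of different depth side by side. Like Sele, Il1r1 passed the filter only through the members, where it was high.

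The remaining higher genes of this group had log2 ratios of 2.50 to 3.76. Apoe, a lipid carrier, gave 3.28 and 3.22, with 544 and 181 CPM in the members. Clca3a1, a chloride channel regulator found on some venous and lymphatic endothelium, gave 3.68 and 3.50 and was almost without counts in non-endothelial cells (0.105% and 0.181%). Il6st, the shared gp130 chain of interleukin-6 family receptors, gave 2.53 and 2.61. Icam1, the ligand of leukocyte integrins, gave 2.50 and 2.92. Tbc1d8, the protease inhibitor gene Spint2, the myosin phosphatase inhibitor gene Ppp1r14a and the dynamin gene Dnm3 completed the 15.

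Most venous genes had positive ratios. Of 20 listed genes 16 passed the filter, 9 were higher and 0 lower, and 15 of the 16 had positive ratios in both libraries, with medians of 1.47 and 1.83. At least Sele and Il1r1 among them passed the filter only through the members, where they were high. Their reference levels were 0.388 and 0.67 CPM for Sele and 27.6 and 15.6 CPM for Il1r1. Nr2f2, the transcription factor of venous fate, stood at 201 against 74.6 CPM in PyMT-M (log2 ratio 1.43, 0.98 to 1.87) and at 269.6 against 63.0 CPM in PyMT-N (2.10, 1.88 to 2.31). Its transcripts were common in non-endothelial cells too, at 53.6 and 79.1 CPM. Thus Nr2f2 was higher in the members than in either other population.

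Lrg1, a secreted modulator of TGF-beta signaling and a venular marker, stood at 1275 against 130.1 CPM in PyMT-M and at 1363 against 284 CPM in PyMT-N. It was found in 91.8% and 97.2% of the members against 33.1% and 71.6% of the reference, in 89.7% and 97.1% against 24.7% and 53.8% after thinning, and in 0.420% and 1.36% of non-endothelial cells. Slco2a1, which carries prostaglandins into cells, had 547 against 85.8 CPM and 559 against 127 CPM. Aplnr, the apelin receptor, had 509 against 179.8 CPM and 602 against 209 CPM.

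The proteoglycan gene Bgn gave log2 ratios of 3.65 and 2.18. In PyMT-N, Bgn and Slco2a1 were also abundant in non-endothelial cells, at 1994 and 402 CPM against 15.3 and 0.659 in PyMT-M, and the part of free tumor RNA in their PyMT-N values was not tested. Vcam1, the ligand of integrin alpha4, gave 1.30 and 3.15, and 0.98 in PyMT-M without the cell that held most of its UMIs. The permeability gene Plvap (0.75 and 0.66) and the venous receptor gene Ephb4 (0.46 and 0.43) did not reach 2-fold. Ctla2a was the exception of the list, at -0.45 and -0.81.

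**Figure D3:**
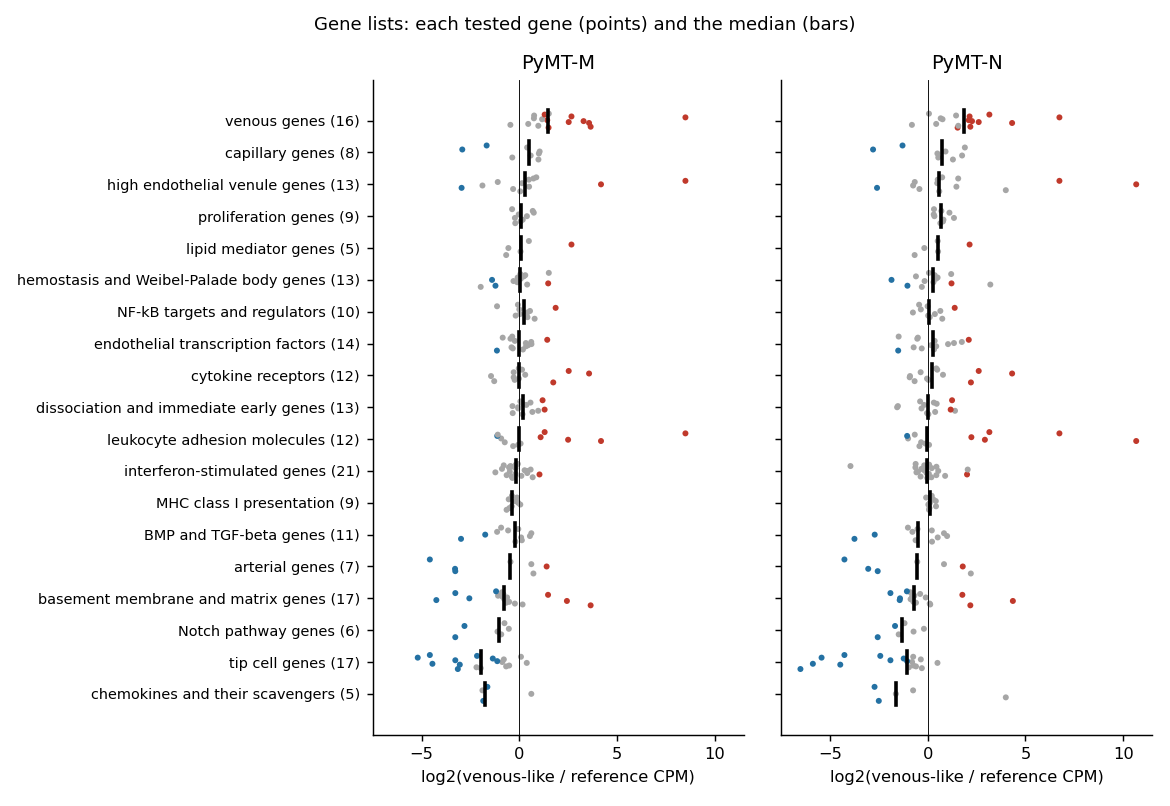
Log2 ratio of venous-like cells over the reference for the genes of each list with at least 5 genes past the filter (points, red for called higher and blue for called lower) and the list's median (bars), with a panel per library. The venous list has medians of 1.47 and 1.83, the Notch list -1.02 and -1.34, and the tip cell list -1.97 and -1.06.

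Leukocyte adhesion genes did not move as a group. Of 17 listed, 12 passed the filter, 5 were higher (Sele, Glycam1, Icam1, Vcam1 and Jam2) and 1, Mcam, was lower at -1.13 and -1.06. Jam2, a junction protein that binds leukocyte integrins, gave 1.09 and 2.23. Icam2, the constitutive endothelial integrin ligand, gave -0.93 and -1.01. The list had medians of 0.01 and -0.03. Among the higher genes, Sele passed the filter only through the members. Glycam1 in PyMT-M rests on 2 UMIs in 1 cell, and Vcam1 in PyMT-M was under 2-fold without 1 cell.

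Among 18 cytokine receptor genes, 12 passed the filter and 3 were higher, namely Il1r1, Il6st and Csf2rb. Il1r1 passed the filter only through the members, as given above. Csf2rb, the shared chain of the GM-CSF, IL-3 and IL-5 receptors, gave log2 ratios of 1.74 and 2.21. Below the filter, Lifr (2.03 and 2.58) and Osmr (1.41 and 2.13), which pair with gp130 in receptors for leukemia inhibitory factor and oncostatin M, had positive ratios as well. Socs3, an inhibitor of signaling from gp130 and itself induced by it, was higher in both libraries at 1.86 and 1.38. It was the 1 gene called among 10 of the 20 NF-kB and feedback genes that passed, whose medians were 0.23 and 0.06.

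Of 20 chemokine genes and scavenger receptors 5 passed the filter, 0 were higher and 2 lower. The lower genes were Cxcl9, an interferon-induced T-cell chemokine (-1.63 and -2.73), and Ackr3, a scavenger receptor for Cxcl12 (-1.84 and -2.51). The summed list stood at 777 against 1119 CPM in PyMT-M and at 622 against 434 CPM in PyMT-N, where 478 CPM were Ccl21a, mostly in the cell described above. Not called in both libraries were Cxcl12, at -1.88 and -0.75, and Ccl2, which did not pass the filter. Ccl2, the monocyte chemokine, stood at 42.4 against 136 CPM in PyMT-M and 5.50 against 7.79 CPM in PyMT-N. In PyMT-M 58.3% of the 12 Ccl2 UMIs were in 1 cell, and non-endothelial cells held 506 CPM.

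Genes of sprouting endothelium were the largest group of lower genes among the lists. All 17 tip cell genes passed the filter, 9 were lower and 0 higher, and 15 were negative in both libraries. Their summed level was 4446 against 8794 CPM in PyMT-M and 6718 against 11789 CPM in PyMT-N. Esm1 (endocan), a classic tip cell gene, fell from 308 CPM in the reference to 14.1 in the members of PyMT-M, and from 259.7 CPM to 4 UMIs in PyMT-N. Pgf, a VEGF family ligand, was down to 7.06 from 259 CPM and to 3.30 from 143 CPM, or 2 and 3 UMIs. Esm1 and Pgf passed the filter only through the reference, where they were high. The same holds for Unc5b, Adm and Cxcr4 below, so the count of lower genes partly depends on the filter.

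Igfbp3, an insulin-like growth factor binding protein, was the most counted of the 10 lowest genes, with 229.5 against 2873 CPM and 289 against 3475 CPM. Its log2 ratios were -3.65 (-4.02 to -3.29) and -3.59 (-3.77 to -3.41). Unc5b, a netrin receptor of tip cells, gave -4.58 and -4.27, Adm (adrenomedullin) -3.14 and -6.52, and Cxcr4, the Cxcl12 receptor, -3.04 and -4.48, all on 9 or fewer UMIs in the members. Apln, the apelin gene, gave -2.19 and -0.96. Also among the 10 were Bmp2, Efnb2, Clca2 and AA467197.

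Some arterial and Notch genes were lower in the venous-like cells. Efnb2, the arterial ephrin, gave -3.29 and -3.05, and the Notch ligand gene Dll4 -3.27 (24.7 against 239 CPM) and -2.56 (47.3 against 279.8 CPM). Dll4 passed the filter only through the reference, where it was high. Gja4, an arterial connexin gene below the filter, had 0 UMIs in PyMT-M members against 88.9 CPM in the reference and 1 UMI in PyMT-N members against 60.8 CPM. Against the floor of 3 UMIs over the members its level was at least 3.07 log2 units lower in PyMT-M. The Notch target Hey1 had 1 UMI in the members of each library, against 45.4 and 58.5 CPM.

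Of 13 arterial genes 7 passed, 3 were lower and 1 higher, the higher one being the elastic fiber gene Fbln5 at 1.40 and 1.79. The Notch list had 6 of 12 genes past the filter, all of them negative in both libraries, and 2 were called lower, with medians of -1.02 and -1.34.

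Capillary genes did not share a direction. Gpihbp1, which holds lipoprotein lipase on capillaries, was lower at 233 against 1759 CPM in PyMT-M (-2.92, -3.29 to -2.57) and 228 against 1588 CPM in PyMT-N (-2.80, -3.01 to -2.60). It was found in 30.6% and 36.1% of the venous-like cells (31.0% and 24.3% after thinning) and in 90.3% and 94.9% of the reference (95.2% and 92.1%). Non-endothelial cells were positive in 1.45% and 2.86%. Rgcc was also lower (-1.67 and -1.29). The water channel gene Aqp1 gave 0.98 and 1.29, and the fatty acid carrier gene Fabp4 1.00 and 0.49, the latter 0.07 in PyMT-N without the cell that held 27.5% of its UMIs. Of 13 listed genes 8 passed, 0 were higher and 2 lower, and the medians were 0.49 and 0.72.

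Basement membrane and matrix genes went both ways. Of 21 listed, 17 passed the filter, 12 were negative in both libraries, 4 were lower and 3 higher, and the summed level was 10064 against 16305 CPM in PyMT-M and 13461 against 21129 CPM in PyMT-N. The laminin chain gene Lama4 gave -2.55 and -1.42, the nidogen gene Nid2 -3.27 and -1.91, and fibronectin (Fn1) had 0 UMIs in PyMT-M members, at least 4.24 log2 units lower against the floor, and -1.44 in PyMT-N. Sparc, found in every member, gave -0.88 and -0.90. The higher members were Bgn, Fbln2 (2.44 and 4.35) and the calcification inhibitor Mgp (1.47 and 1.77). Mgp was carried by 5 of 49 and 31 of 72 cells, and PyMT-N non-endothelial cells held it at 6639 CPM, Fn1 at 4971 CPM and Fbln2 at 883 CPM, against 11.6, 7.97 and 143 CPM in PyMT-M. The part of that RNA in the PyMT-N values was not tested.

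Vwf, the carrier of factor VIII and main protein of Weibel-Palade bodies, had ratios that differed between the libraries, which was not tested. In PyMT-M it stood at 547 against 192 CPM, a log2 ratio of 1.51 (1.24 to 1.78). The PyMT-N values were 691 against 663 CPM, with a ratio of 0.06 (-0.06 to 0.18). In the hemostasis list, 13 of 20 genes passed, 1 was higher and 2 lower. Entpd1 (CD39), which removes ATP and ADP, gave 1.48 and 1.21, the plasminogen activator gene Plat -1.39 and -1.86, and Cd63 -1.22 and -1.04. The protein C receptor gene Procr gave 0.08 and 0.42. Endothelin (Edn1), a vasoconstrictor, gave 0.41 and 3.20. Hemostasis genes thus had no common direction.

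Among BMP and TGF-beta genes 11 of 15 passed, 0 were higher and 2 lower, namely Bmp2 (-2.98 and -3.75) and the activin chain gene Inhbb (-1.74 and -2.72). Endothelial transcription factors held near the reference, with 14 of 22 past the filter, 1 higher (Nr2f2), 1 lower and medians of -0.02 and 0.24. The flow-responsive factor Klf2 gave 0.34 and 1.34. Id2, an inhibitor of helix-loop-helix factors below the filter, gave 2.35 and 2.77. For 24 interferon-stimulated genes, 21 passed, 1 was higher and 0 lower, and medians were -0.19 and -0.03.

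MHC class I genes showed 0 higher and 0 lower of 9 that passed, and none of 7 MHC class II genes passed. Of 14 dissociation and immediate early genes, 13 passed and 2 were higher, with medians of 0.18 and 0.03. Of 8 lymphatic genes 2 passed and 1 was lower. The lists of complement genes (1 of 11 passed, 0 called), lipid mediator genes (5 of 15 passed, 1 higher) and proliferation genes (9 of 14 passed, 0 called in either direction) added no further group.

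Markers of other cell types had few UMIs in the members, and some lists stood above the reference. In PyMT-M and PyMT-N the 10 platelet markers summed to 4 and 19 UMIs, mostly Itga2b, with 0 and 1 UMIs of Pf4, a defining platelet gene. Platelets carry Selp too, so this value bears on the rule directly. The platelet list stood at 14.1 and 20.9 CPM against 11.7 and 11.98 in the reference. Myeloid markers summed to 6 and 32 UMIs (Lyz2 at 1 and 13, 12 of those in 1 cell), or 21.2 and 35.2 CPM against 11.3 and 17.6. Lymphocyte markers came to 0 and 15 UMIs, in PyMT-N 16.5 against 2.93 CPM, and fibroblast markers to 10 and 3 UMIs, or 35.3 and 3.30 against 17.5 and 4.10 CPM. Tumor epithelial markers came to 1 and 2 UMIs. The 5 erythroid genes summed to 0 and 57 UMIs, in PyMT-N 62.7 against 26.7 CPM, with 40 UMIs of Hbb-bs in 1 cell. The part of these transcripts in the results was not tested. Pericyte and smooth muscle markers came to 32 and 69 UMIs, or 113 and 75.9 CPM against 34.2 and 155 in the reference. Of these, 29 and 57 were Tagln, with Pdgfrb at 0 in both and Rgs5 at 0 and 2. Leaving out the 526 and 430 barcodes with the highest doublet scores (6% and those tied at the limit) removed 0 members. It removed only 0.351% and 0.399% of all gated cells, so it cannot tell whether the members hold doublets.

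The venous-like cells were not uniform. Both rule genes were found in 67.3% of them in PyMT-M (33) and 68.1% in PyMT-N (49), Selp alone in 15 and 20, and Ackr1 alone in 1 and 3. The cells with both were no deeper than those with Selp alone, at medians of 5005 and 9859 UMIs against 6769 and 14413.5. Of the 3755 genes, 43 were at least 2-fold higher in both libraries in the cells with both genes over those with Selp alone, and 25 lower.

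In the cells with both rule genes, Il6st stood at 587 CPM (PyMT-M) and 737 CPM (PyMT-N), compared with 143 and 223 CPM in the cells with Selp alone. Cmah (3.19 and 1.89), Prkg1 (2.35 and 1.79) and Rora, a nuclear receptor of the circadian clock (3.15 and 1.96), were higher there as well. Mgp gave 2.43 in PyMT-M, with an interval of -0.39 to 7.87, and 2.81 in PyMT-N. The lower genes included Mki67 (-2.27 and -1.81), Pclaf (-1.86 and -2.24), Prc1 (-1.63 and -3.18) and Stmn1 (-2.10 and -1.28), which belong to cell division, and Plcb1 (-1.39 and -1.23). Rora, Pclaf, Prc1 and Plcb1 were named after their values were seen.

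The summed venous list stood at 10580.4 CPM in the PyMT-M cells with both rule genes and 9881 CPM in those with Selp alone, against 6822 CPM in the reference. In PyMT-N it stood at 11471 CPM in the cells with both, 7280 CPM in those with Selp alone and 7302 CPM in the reference. Ctla2a, the most abundant gene of the list and lower in the members, made up most of the reference sums. Without it the other 19 genes summed to 7664 CPM in the PyMT-M cells with both rule genes, 5990 CPM in those with Selp alone and 2392 CPM in the reference. In PyMT-N the same sums were 8385, 5731 and 2883 CPM. On these 19 genes both kinds of member stood above the reference in both libraries. With Ctla2a included, the PyMT-N cells with Selp alone did not. Since the gene left out was one that was lower, these sums describe the other genes and test nothing.

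Proliferation genes together were at 1195 and 687 CPM in the cells with both rule genes and at 2251 and 2454 CPM in those with Selp alone, against 1364 and 822 CPM in the reference. Mki67, carried by dividing cells, was found in 2 of 33 (6.06%) and 4 of 49 (8.16%) cells with both genes. With Selp alone it was found in 5 of 15 (33.3%, 11.8 to 61.6) and 8 of 20 (40.0%, 19.1 to 63.9), and in the reference in 15.4% and 9.31%. Non-endothelial cells, which include dividing tumor cells, were positive in 38.6% and 5.61%. A single cell held 32.6% and 40.7% of the list's UMIs among the cells with both genes, and 24.4% and 20.6% among the Selp-only cells. The cells with both genes were below those with Selp alone in both libraries, on small numbers of cells and with the Selp-only cells the deeper ones.

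Levels were also summed by the number of rule UMIs, which the rule itself used, as a description. In PyMT-M, Il1r1 went from 27.6 CPM at 0 UMIs to 103 at 1 or 2, 293 at 3 to 5 and 346 above 5. In PyMT-N the same steps were 15.6, 78.6, 249 and 361 CPM. Lrg1 went from 130.1 through 383 and 748 to 1529 CPM in PyMT-M and from 284 through 714 and 921 to 1732 CPM in PyMT-N. Gpihbp1 went the other way, from 1759 through 868 and 347 to 178 CPM, and from 1588 through 329 and 247 to 212 CPM. Cells with 1 or 2 rule UMIs, which belong to neither population, thus had summed levels between the reference and the members for these genes in both libraries. A sum cannot tell intermediate cells from a mixture. Other genes did not follow the steps, such as Sele in PyMT-M, at 30.7 CPM with 1 or 2 rule UMIs and 21.7 with 3 to 5, and Esm1 there, at 0 with 3 to 5 and 20.9 above 5.

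**Figure D4:**
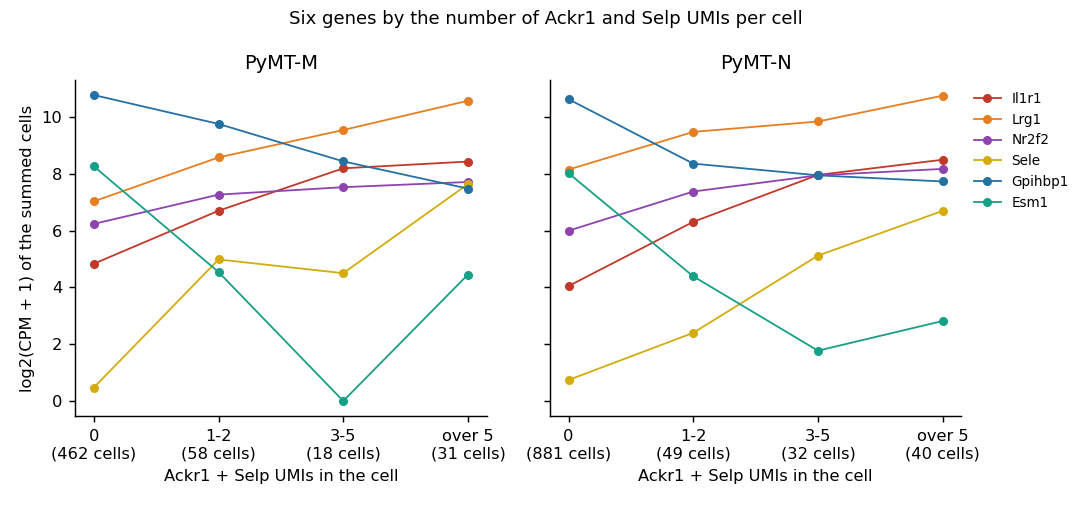
Level of 6 genes, as log2(CPM + 1), by the number of Ackr1 and Selp UMIs in a cell (0, 1-2, 3-5 and over 5) in each library, summed over the cells of a step. Il1r1 and Lrg1 rise at each step in both libraries and Gpihbp1 falls, with 18 to 462 cells a step in PyMT-M and 32 to 881 in PyMT-N.

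The study set the sublines side by side, and the venous-like share of the gated cells was 8.61% (6.44 to 11.2) in PyMT-M and 7.19% (5.66 to 8.96) in PyMT-N. The difference was 1.43 points (-1.38 to 4.45), with an interval over the cells of these 2 libraries and no test of the sublines. Because a fixed UMI threshold is easier to reach in deeper cells, and those of PyMT-N were deeper, both were also thinned to 5000 UMIs. The shares were then 8.08% (24 of 297 cells) and 4.40% (42 of 954 cells), a difference of 3.68 points (0.470 to 7.58). Thinning kept 297 of 569 gated PyMT-M cells and 954 of 1002 gated PyMT-N cells. The shallower cells left out were thus mostly of PyMT-M, and the thinned shares compare unlike parts of the 2 libraries. The intervals cover counting error only, and how the shares vary between tumors is not known from 1 pooled library each.

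Between the venous-like cells of the sublines, 100 of 3755 genes (2.66%) were at least 2-fold higher in PyMT-M and 180 (4.79%) lower. In the reference the counts were 127 higher and 69 lower, and 49 and 42 genes were shared with the members. The member sums held 283200 and 908911 UMIs, against 2575079 and 11939471 in the reference. Counting error is larger in the smaller sums, and its part in these counts was not tested. The counts therefore do not show which population differed more between the sublines. Of 21 interferon-stimulated genes, 11 were higher in PyMT-M members and 0 lower, with a median log2 ratio of 1.14, against 1.46 in the reference. Capillary genes had 4 of 8 higher and 0 lower, with medians of 0.96 in the members and 1.49 in the reference. Of 5 chemokine genes 3 were higher and 1, Ccl21a, lower, with medians of 1.68 and 1.63. Ccl21a passed the filter through the PyMT-N members, where 350 of its 434 UMIs were in the cell with most Glycam1. Its lower call is therefore a description of mostly 1 cell. Ifi27l2a, an interferon-induced mitochondrial protein, gave 3.79 in the members and 4.77 in the reference, Usp18, which removes ISG15, 2.27 and 1.72, and Ifit1, an RNA-binding antiviral protein, 2.18 and 1.71. The chemokine gene Cxcl10 gave 4.10 and 1.85, but 70.1% of its UMIs in PyMT-M members were in 1 cell. Cxcl9 gave 2.73 and 1.63, Apol9b 2.23 and 2.97, the hypoxia gene Stc1 2.23 and 1.32, and the linker histone gene H1f5 2.21 and 0.89.

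Higher in the PyMT-N members were Mgp (-2.27 in the members, -1.97 in the reference), Spp1 (-1.81, -2.12), Limch1 (-1.80, -1.82), Tspan18 (-1.62, -1.07), Lama4 (-1.60, -0.47), Fry (-1.55, -0.67), Gab1 (-1.55, -0.15) and the protocadherin gene Pcdh7 (-2.07, 0.12). Fn1 had 0 UMIs in PyMT-M members and 139 CPM in PyMT-N members. Mgp and Fn1 were named above for their high level in PyMT-N non-endothelial cells. Spp1 stood there at 24427 CPM and Pcdh7 at 301 CPM, against 1804 and 0.694 CPM in PyMT-M, and the part of that RNA in these ratios was not tested.

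Some genes that differed between the sublines in the reference were nearer to each other in the venous-like cells. They are given as picked examples and not as a tally. Vwf had a log2 ratio of PyMT-M to PyMT-N of -1.79 in the reference and -0.34 in the members. Lrg1 gave -1.13 in the reference and -0.10 in the members. Vcam1 gave 2.33 in the reference and 0.48 in the members, and Edn1 2.67 and -0.13. Other genes, such as Lama4, Gab1 and Pcdh7 above, were further apart in the members. Over all 3755 genes, 100 were at least 2-fold higher in PyMT-M members and 180 lower, against 127 and 69 in the reference. These counts come from unequal UMI totals, as given above. Whether the difference between sublines itself differed between members and reference could not be tested with 1 library each. Ackr1 (1.02) and Selp (0.88), which the rule used, had higher CPM in PyMT-M members, a difference that a fixed minimum of 3 UMIs in shallower cells favours by construction.

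**Figure D5:**
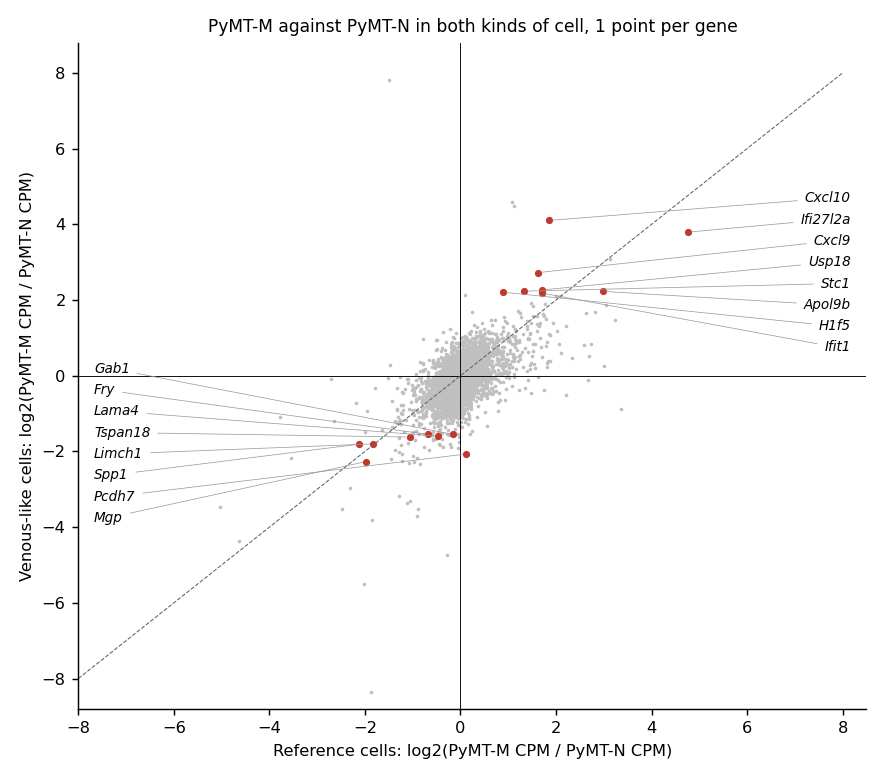
Log2 ratio between the sublines, PyMT-M over PyMT-N, shown for the reference (x axis) and the venous-like cells (y axis), 1 point per gene, with the 16 named genes in red and a dashed line where both ratios are equal. Interferon-stimulated genes such as Ifi27l2a (4.77 and 3.79) lie to the upper right, and Mgp (-1.97 and -2.27) to the lower left.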

How the data were processed

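Single-cell RNA libraries (10x 3' v3.1) of sorted endothelial cells from PyMT-M and PyMT-N tumors were used, 1 library per subline, each pooled from 3 tumors. The authors deposited counts (UMIs per gene and barcode, not normalized) for 33696 genes, and the submitters' processing notes name Cell Ranger 8.0.0 and mm39. The deposited labels name collagenase I for digestion. The members and gene lists were chosen with earlier results of these data known. UMIs were summed over members and over reference cells of each library and scaled to CPM with Python 3.11.15, pandas 2.3.3, numpy 2.4.6 and scipy 1.17.1, and Scrublet scores from scanpy 1.11.5 served for doublets, in an alternative only. Genes at a mean of 50 CPM or more were compared, leaving out the 14 gate and rule genes. Named were the 15 higher and 10 lower genes past 2-fold in both libraries with the largest smaller ratio. Also named were 8 per direction for PyMT-M over PyMT-N (at least 10 UMIs in the lower library, predicted genes left out). Detected high endothelial venule genes, and the 3 highest and 3 lowest of each other of 22 lists, were candidates. The text names only a part of these candidates. Further list genes, and those named outside lists, were chosen after their values were seen. Another 7 lists marked other cell types. A level of 0 was set to a floor of 3 UMIs over the group. Intervals are exact (Clopper-Pearson for shares, conditional for ratios) and cover counting error only, at totals of 283200 and 908911 UMIs in the members and 2575079 and 11939471 in the reference. The scripts were tested on simulated data. Alternatives changed the threshold, gate, filter, fold, scaling, depth and single cells.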

Additional observations from a re-analysis of the deposited data

Results flagged for a closer look

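Igfbp5 and Nav3 were picked out because their ratios of venous-like over reference cells had opposite signs in the 2 libraries, each at least 2-fold. The difference between the libraries was not tested. Igfbp5, an insulin-like growth factor binding protein, had a log2 ratio of 5.51 in PyMT-M and -3.81 in PyMT-N. Of its 70 UMIs in PyMT-M members, 95.7% were in 1 cell, without which the ratio was 0.99, and PyMT-N members held 1 UMI. Nav3, a microtubule-guiding protein, gave 1.38 and -1.26. Its members stood at 159 and 167 CPM and its reference at 61.0 and 402 CPM, and non-endothelial cells held 96.4 and 523 CPM.

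Glycam1 was also counted outside the gated cells. In PyMT-M, 489 of its 540 UMIs (90.6%) were in 7 of the 30 barcodes with a Prox1 UMI, which the gate leaves out, against 2 UMIs in the members. The PyMT-M barcodes with the most Glycam1 UMIs held 214, 78, 76, 45, 36, 35, 31 and 10, and 0 UMIs each of Ackr1, Selp and Sele. In PyMT-N the 230 barcodes with a Prox1 UMI held 70 of 2234 Glycam1 UMIs (3.13%).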

How the results depend on the processing

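Under the 18 alternatives, 1589 values were recomputed for 44 genes, 16 genes between the sublines and 6 lists. Of these, 1414 stayed within their counting interval (within 0.5 for list medians) and 175 left it. The sign changed in 14, all of them under 2-fold as reported: values of Vwf, B3gnt3 and Ltbr and the high endothelial venule median in PyMT-M, which went from 0.32 to -0.03 for cells near the median gene number. Vwf in PyMT-N went from 0.06 to -0.15 at 2 UMIs or more. The 25 named genes stayed past 2-fold in both libraries except 1 in each of 4 settings, among them that without the cell with most UMIs of the gene. Of the 16 genes named between the sublines, 14 were past 2-fold with Ackr1 alone, where Stc1 fell from 2.23 to 0.66 and H1f5 had no value, and 15 after thinning.

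The venous-like share moved with the rule. In PyMT-M it was 11.95% at 2 UMIs or more, 5.98% at 5 or more and 3.34% with 3 UMIs of Ackr1 alone, and in PyMT-N 4.69% at 5 or more, 2.99% with Ackr1 alone and 4.40% after thinning. Genes called higher and lower against the reference numbered 166 and 182 at a 20 CPM filter, 47 and 56 at 100 CPM, 573 and 267 with no filter and 198 and 246 at 1.5-fold, since more or fewer genes were tested or could pass. Between the sublines, genes higher in PyMT-M numbered 65 at 2 UMIs or more, 161 at 5 or more, 232 with Ackr1 alone, 161 for cells near the median gene number, 316 after thinning and 156 without mitochondrial, ribosomal and hemoglobin genes in the total. Lower ones numbered 299 at 5 or more, 383 with Ackr1 alone and 450 after thinning. The cause was not tested. Ackr1 alone left 19 members in PyMT-M, while the change of total kept all 49 and 72.

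Without the member with most Glycam1 UMIs in each library, an alternative chosen after seeing the data, 85 genes were higher and 105 lower. No paired analysis was possible because no replicate numbers exist and each subline has 1 library, so that no replicate could be left out. Members and reference were compared within each library, without a p-value, since the rule chose the members within that contrast. Depth limits the PyMT-M members most, where 3 UMIs correspond to 10.6 CPM, against 3.30 CPM in PyMT-N.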

Other observations

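Further genes separated the venous-like cells from the reference and were chosen after their values were seen. Tacr1, the substance P receptor, was higher at 226 against 43.5 CPM in PyMT-M (log2 ratio 2.38, 1.91 to 2.83) and 519 against 113 CPM in PyMT-N (2.20, 2.05 to 2.35). It was found in 42.9% and 65.3% of the members, or 37.9% and 57.1% after thinning, and was nearly absent from non-endothelial cells at 0.0178 and 0.0691 CPM. Csf2rb2, a mouse paralog of Csf2rb that can share reads with it, gave 1.95 and 1.44, and the integrin gene Itgb4 gave 2.23 and 2.86. Csrp2, a cytoskeletal LIM protein, gave 1.57 and 1.69.

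Cldn5, the main endothelial claudin of tight junctions, was lower at 67.1 against 655 CPM (-3.29) and 136 against 881 CPM (-2.69), and was found in 16.3% and 27.8% of members against 64.3% and 91.0% of the reference. After thinning, these shares were 20.7% and 24.3% against 69.3% and 83.6%. Prnd (-3.74 and -2.51), the intermediate filament gene Nes (-3.30 and -2.45), the lipase inhibitor gene Angptl4 (-2.14 and -1.81) and the receptor gene Kit (-2.30 and -1.18) were also lower.

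Among venous and other list genes too low for the filter, Lbp, which carries bacterial lipopolysaccharide, had 12 against 4 UMIs in PyMT-M (log2 ratio 4.77, 3.05 to 6.86) and 31 against 6 UMIs in PyMT-N (6.08, 4.80 to 7.64). Ptgs1, the constitutive cyclooxygenase, gave 3.12 (2.18 to 4.05) and 3.47 (2.98 to 3.95), with PyMT-N non-endothelial cells at 83.8 CPM. Csf3, the neutrophil growth factor, had 8 UMIs in 4 PyMT-M members and 0 in their reference, and 0 UMIs in PyMT-N members.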
